A study of Homo sapiens with 3 samples.

Results

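The genes described here are the E2F transcription factors E2F1 to E2F8, their dimerisation partner TFDP1 and the retinoblastoma gene RB1, 10 of the 18239 genes measured. They were read through every probe set that the platform annotation assigns to 1 of these genes alone, which gave 27 of 49386 probe sets, and no probe set was shared with another gene. The cells were GFP-SAS, named in the labels as SAS, an established line from a human tongue carcinoma, and every library came from cells given 10 nM of a small interfering RNA (siRNA) for 24 h. The control library had the non-targeting siRNA siNT, and the others had siAkt1-22 or siAkt1-58, which are both directed against AKT1, a kinase of the PI3K pathway. There was 1 library per siRNA, 3 in all, each hybridised to an Affymetrix array after labelling of 10 ng of total RNA. Whether the libraries came from separate cultures is not given in the sources used here, and any spread between them may be technical.

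E2F factors bind promoters of genes needed for DNA synthesis and cell division. E2F1, E2F2 and E2F3 are known mainly as activators, E2F4 and E2F5 as partners of the pocket proteins that hold such genes silent outside S phase, E2F6 as a repressor that does not bind pocket proteins, and E2F7 and E2F8 as repressors that bind DNA without a DP partner. RB1 encodes the pocket protein that masks activator E2Fs until cyclin-dependent kinases phosphorylate it, and TFDP1 encodes DP1, with which E2F1 to E2F6 pair on DNA. Much of this control acts on protein, which an array does not measure.

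All values are RMA log2 expression values per probe set, so a difference of 1 is 2-fold, and differences are from siNT unless another reference is named. Where a gene has several probe sets, the one with the highest mean stands for the gene, and its level is not comparable with that of another probe set. The 12779 genes with a mean of at least 3.93 (the 30th percentile) were tested, 9 of the 10 genes among them. E2F5 was too dim to pass. The siNT library is single, so no comparison of 1 siRNA with siNT has a test, and "at least 2-fold" is a rule of size. The siRNA target AKT1 was at -3.08 and -3.28 with siAkt1-22 and siAkt1-58, both from readings below the filter level (3.67 and 3.47), too dim for an exact fold. Of the 7 epithelial markers measured, 6 passed the filter: EPCAM (11.29 to 11.67), KRT18 and CDH1 were bright, and KRT14, at 3.65 to 3.67, was below the filter level. Of 4 immune markers measured, PTPRC read 2.89 in each library, and CD68, a lysosomal protein gene of macrophages and other cells, passed the filter, at 6.33 with siNT, 6.75 with siAkt1-22 and 7.14 with siAkt1-58; its part in the results was not tested. Also past the filter were 2 of 3 endothelial markers (up to 4.50), 1 of 4 fibroblast markers (up to 4.21) and 2 of 3 muscle markers (up to 5.54). Passing the filter alone therefore does not show that a gene is expressed. The spiked poly-A controls, 24 probe sets that report labelling, had a median of -0.56 with siAkt1-22 and -0.01 with siAkt1-58.

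The siAkt1 libraries differed in which E2F genes read low. With siAkt1-22, E2F7 was 7.79-fold and TFDP1 3.95-fold below siNT, and with siAkt1-58 they were 1.34-fold and 1.16-fold below. With siAkt1-58, E2F8 was 3.31-fold below siNT, against 1.22-fold with siAkt1-22. E2F1, E2F2, E2F3, E2F4, E2F6 and RB1 stayed within 2-fold of siNT with either siRNA. With siAkt1-22, 2 of the 9 genes tested were at least 2-fold below siNT, where 5.97% of all genes tested were; with siAkt1-58 it was 1 of 9, against 3.58%. None was at least 2-fold below siNT with both siRNAs (1.17% of all genes) or above it with both (0.736%). None was at least 2-fold above siNT with siAkt1-22 alone (4.40%) or with siAkt1-58 alone (1.54%). Counted by probe set, 5 of the 25 bright enough to test were at least 2-fold below siNT with siAkt1-22 (5.95% of all probe sets tested). These 5 belonged to TFDP1 and E2F7 alone. With siAkt1-58 there were 2 (3.22%), both of E2F8, and 0 were 2-fold below (1.11%) or above siNT (0.565%) with both siRNAs. Probe sets of 1 gene read the same RNA, so these counts add no further genes. In bulk RNA, fewer cells that express a gene and less RNA per cell cannot be told apart.

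**Figure D1:**
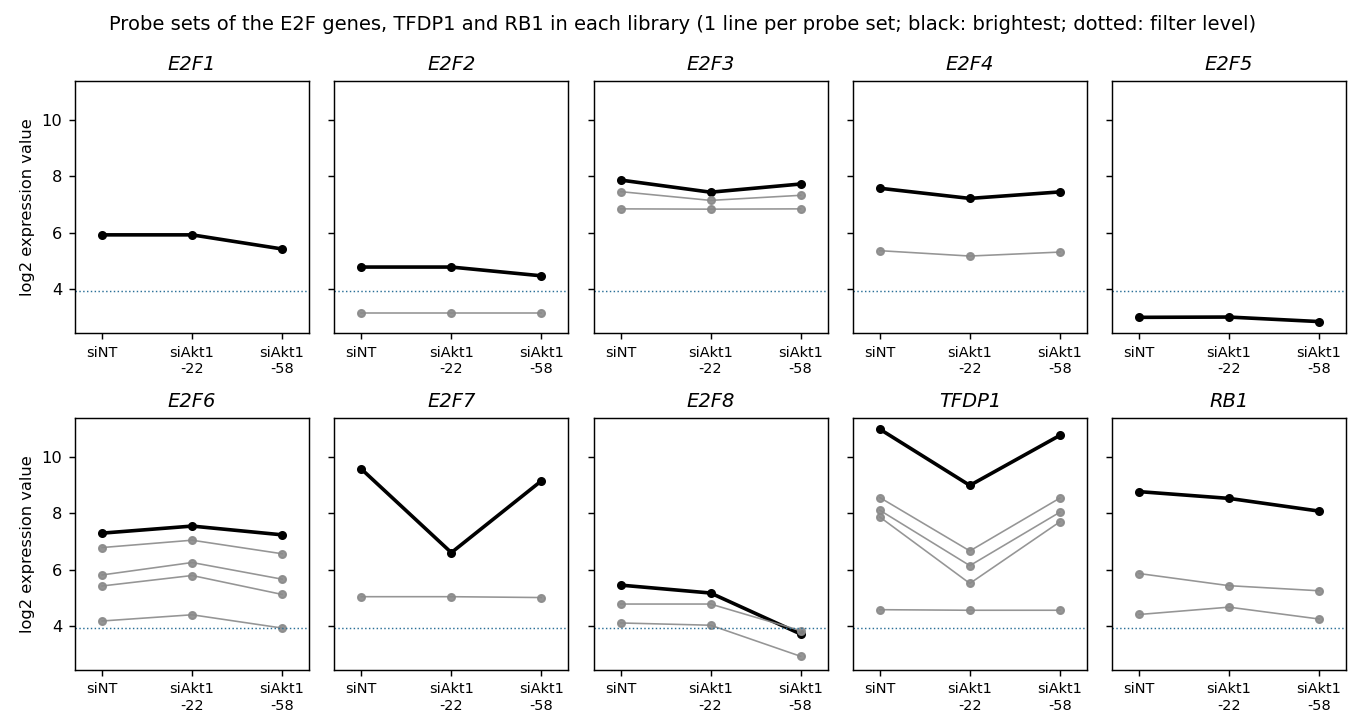
Log2 expression value (y axis) of each probe set of the 10 genes in the siNT, siAkt1-22 and siAkt1-58 libraries (x axis), 1 line per probe set, with the brightest in black and the filter level of 3.93 dotted; lines only join values of 1 probe set. TFDP1 and the brighter E2F7 probe set dip with siAkt1-22, and the E2F8 probe sets are lowest with siAkt1-58.

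Stretches of 5 promoters are shown because several E2F genes are known to carry E2F sites of their own, and because these genes took different courses here. Each is the run of 120 bases that ends just before the annotated start site, 5′ to 3′ on the gene's strand, from RefSeq on GRCh38.p14, and capitals mark any of 4 spellings of the E2F consensus, TTTCCCGC, TTTCGCGC, TTTGCCGC or TTTGGCGC, on either strand:
E2F1, chr20:33686386-33686505, minus strand: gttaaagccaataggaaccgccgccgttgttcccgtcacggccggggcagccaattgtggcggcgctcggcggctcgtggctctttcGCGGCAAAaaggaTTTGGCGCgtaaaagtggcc
E2F2, chr1:23531234-23531353, minus strand: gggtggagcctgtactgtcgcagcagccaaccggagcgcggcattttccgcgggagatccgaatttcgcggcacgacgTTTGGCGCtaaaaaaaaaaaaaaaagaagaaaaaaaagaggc
E2F3, chr6:20401759-20401878, plus strand: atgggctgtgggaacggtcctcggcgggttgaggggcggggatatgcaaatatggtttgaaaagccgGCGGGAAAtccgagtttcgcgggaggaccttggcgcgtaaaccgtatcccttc
TFDP1, chr13:113584633-113584752, plus strand: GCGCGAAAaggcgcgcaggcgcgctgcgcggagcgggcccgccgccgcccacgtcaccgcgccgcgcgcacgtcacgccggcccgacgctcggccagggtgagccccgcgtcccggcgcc
E2F7, chr12:77065570-77065689, minus strand: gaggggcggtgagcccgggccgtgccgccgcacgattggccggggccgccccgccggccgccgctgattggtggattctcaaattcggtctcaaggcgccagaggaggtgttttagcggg
The search covered windows of 300 bases, from 250 before to 50 after the start site, and 8 of the 10 genes had a window; E2F5 and E2F8 had none. RB1's window lies 172699 bases inside the gene and is not read here, though RB1 still counts among the genes without a match in the later split. E2F1 had 2 matches, one on the gene's strand beginning 20 bases before the start site and one on the other strand beginning 33 before it, with 5 bases between them. E2F2 had 1 match at 42 bases and E2F3 had 1 on the other strand at 53 in its upstream window. TFDP1 had 1 on the other strand, at 120 bases. E2F4, E2F6 and E2F7 had no match, which says only that these letters were not in the window. Over all windows, 3.31% held a match. The genes with a match did not share a course: E2F1 and E2F2 were within rounding of siNT with siAkt1-22, where TFDP1 was far below it.

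Among the activators, E2F1 is best known for driving entry into S phase. Its single probe set read 5.93 with siNT, 5.93 with siAkt1-22 and 5.43 with siAkt1-58. The siNT and siAkt1-22 values were exactly equal, and the siAkt1-58 value was lower by -0.50. Exact ties are common in such data: 28.5% of probe sets with 1 gene had the same value in these libraries. E2F2, a close relative of E2F1, read 4.79, 4.79 and 4.48 in the same order, so the siAkt1-58 library was lower by -0.31, while the siAkt1-22 value lay under siNT by an amount that rounds to 0. Its other probe set was at 3.15 throughout, below the filter level. E2F3, the activator that is also amplified in some carcinomas, read 7.87 with siNT, 7.44 with siAkt1-22 and 7.73 with siAkt1-58. Here siAkt1-22 was the lower library, by -0.44 against -0.15, and of its other probe sets one gave -0.31 and -0.13 and the last was flat (-0.01 and 0).

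Of the factors linked to repression by pocket proteins, E2F4, the usual E2F of resting cells, read 7.58 with siNT, 7.22 with siAkt1-22 and 7.45 with siAkt1-58. Its dimmer probe set kept that order, with differences of -0.19 and -0.05. E2F5 read 3.01, 3.02 and 2.86, all below the filter level, so no change of this gene could be read. E2F6, which works with Polycomb proteins, had 5 probe sets, and each was above siNT with siAkt1-22 (0.23 to 0.44) and below it with siAkt1-58 (-0.30 to -0.06). Its brightest probe set read 7.29 with siNT, 7.54 with siAkt1-22 and 7.23 with siAkt1-58. These probe sets read the same RNA, so their common direction does not replicate it.

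TFDP1 supplies the DP partner of most E2F dimers, and its lower reading with siAkt1-22 was shared by 4 of its 5 probe sets. The brightest read 10.97 with siNT, 8.98 with siAkt1-22 and 10.75 with siAkt1-58. The siAkt1-22 library was thus the low one, by -1.98, while siAkt1-58 was at -0.22. The next 3 probe sets gave -1.89, -1.97 and -2.35 with siAkt1-22, against -0.02, -0.07 and -0.17 with siAkt1-58. The dimmest, at 4.58 with siNT, read -0.02 with both. Ranked from the lowest, TFDP1 was number 145 of 12779 genes with siAkt1-22 and number 2609 with siAkt1-58. TFDP2, which encodes the related partner DP2, was at -0.11 and -0.25; it is named as TFDP1's relative, after its values were seen.

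The atypical repressors parted by siRNA. E2F7 read 9.56 with siNT, 6.60 with siAkt1-22 and 9.14 with siAkt1-58 in its brighter probe set, number 23 of 12779 from the lowest with siAkt1-22. The dimmer E2F7 probe set read 5.04, 5.04 and 5.01, showing no such dip. The mean of both was -1.48 with siAkt1-22, in place of -2.96, so the size of the E2F7 value rests on 1 probe set. E2F8, its closest relative, read 5.45 with siNT, 5.17 with siAkt1-22 and 3.72 with siAkt1-58. Here siAkt1-58 was the low library, by -1.73, and E2F8 ranked number 107 from the lowest. The other E2F8 probe sets gave -0.94 and -1.18 with siAkt1-58, against 0 and -0.08 with siAkt1-22. Each E2F8 probe set read below 3.93 with siAkt1-58, where signal is too dim to give a full fold, and E2F8 does not enter the test under a filter at the 50th percentile.

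RB1 read 8.76 with siNT, 8.52 with siAkt1-22 and 8.07 with siAkt1-58. Both knockdown libraries lay under the control, by -0.24 and -0.69, and the next RB1 probe set gave -0.43 and -0.61. The dimmest, at 4.41 with siNT, was at 0.26 and -0.16.

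In direction alone, 7 of the 9 genes were below siNT with both siRNAs, where 21.4% of all genes were, and 0 were above it with both, where 30.9% were. Genes tied exactly with siNT, as E2F1 was with siAkt1-22, count on neither side, which lowers both shares over all genes. Between siNT and siAkt1-22, 28.5% of probe sets with 1 gene were tied. E2F2 counts among the 7 with a siAkt1-22 difference that rounds to 0, and E2F1 and E2F6 were the others. The median of the 9 was -0.28 with siAkt1-22 and -0.31 with siAkt1-58, beside 0 over all genes tested. The same siNT library enters both differences, which are therefore not independent. Averaging the probe sets of each gene gave -0.14 and -0.20.

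**Figure D2:**
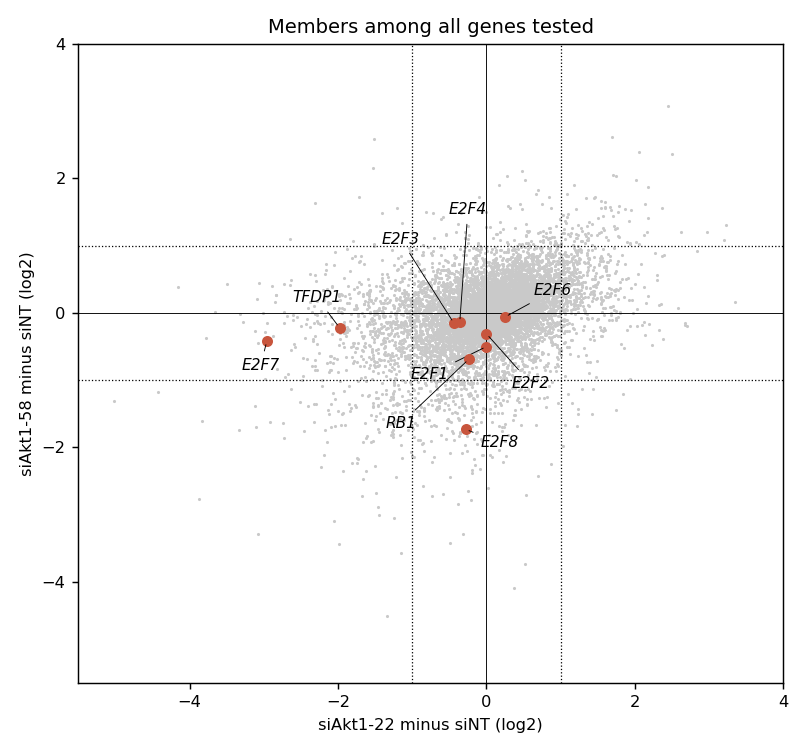
Log2 difference from siNT with siAkt1-22 (x axis) and siAkt1-58 (y axis) for 12779 genes, 1 grey point each, with the 9 tested E2F genes, TFDP1 and RB1 in red and dotted lines at 2-fold. E2F7 and TFDP1 lie left of the 2-fold line and E2F8 below it, and none lies past 2-fold on both axes.

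Set directly against each other, the siAkt1 libraries were at least 2-fold apart in 3 of the 9 genes. E2F7 was 5.83-fold and TFDP1 3.40-fold lower with siAkt1-22 than with siAkt1-58 (5.28% of all genes were at least 2-fold lower), and E2F8 was 2.72-fold higher (5.00%). These are single libraries, and the difference has no test. As a group against siNT, the siAkt1 libraries gave mean differences of -1.69 ± 1.80 (SD, n = 2) for E2F7, -1.10 ± 1.25 (SD, n = 2) for TFDP1, -1.0 ± 1.0 (SD, n = 2) for E2F8 and -0.46 ± 0.32 (SD, n = 2) for RB1. For E2F7, TFDP1 and E2F8 the spread between the siRNAs was as large as the mean. None of the 9 genes passed limma's moderated test (0 of 9; adjusted p = 1 for E2F7, TFDP1 and E2F8, adjusted p = 0.977 for RB1), and none had an unadjusted p under 0.05. The share of all genes tested that passed was 0%, with 954 (7.47%) at an unadjusted p under 0.05. With 1 residual degree of freedom this does not show that the genes kept their level.

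The genes nearest to each of these 3 in the pair of differences were chosen after the values were seen, over 12779 genes and only 2 differences each. Nearest to E2F7 was INIP (-2.99 and -0.44), followed by PHAX and TTL. TFDP1 was nearest to HYCC1 (-1.92 and -0.18), ASNSD1 and SCAF11. E2F8 was nearest to PKIB (-0.36 and -1.78), CXCL1 and CRNDE.

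The next list held the other pocket proteins and the MuvB subunits, which together with E2F4 form the DREAM repressor of resting cells. TFDP2, MYBL1, MYBL2 and FOXM1 were listed with them, so its counts and medians are not those of DREAM alone. Among 11 tested, 7 lay below siNT in both siAkt1 libraries (21.4% of all genes), none by 2-fold (1.17%), and the medians were -0.26 and -0.54. RBL1, which encodes the pocket protein p107, was at -0.73 and -0.54, and its other probe sets ran from -0.66 to -0.44. The MuvB subunits LIN9 (-0.46 and -0.96) and LIN54 (-0.53 and -0.68) and the late activator MYBL2 (-0.26 and -0.45) were lower too, though the other, dimmer LIN54 probe sets ran from -0.23 to 0.02. RBL2 and MYBL1 are named because they alone passed 2-fold with a single siRNA. That is 1 of 11 below siNT with siAkt1-22 (5.97% of all genes) and 1 of 11 with siAkt1-58 (3.58%). RBL2, the gene of p130, read 7.51 with siNT, 5.86 with siAkt1-22 and 7.46 with siAkt1-58, the order also seen for TFDP1. MYBL1 read 8.71, 8.52 and 7.03, the order seen for E2F8.

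Upstream of RB1, 14 cyclins, cyclin-dependent kinases (CDKs) and CDK inhibitors were tested, and 8 were below siNT with both siRNAs, 4 of them at least 2-fold (2 with averaged probe sets), beside 21.4% and 1.17% of all genes. The medians were -0.43 and -0.91. The D cyclins activate CDK4 and CDK6 to phosphorylate RB1: CCND1 was at -1.16 and -1.96 with all 4 probe sets alike, and CCND2 at -5.02 and -1.30, with a dimmer probe set at -2.05 and -1.08. The siAkt1-22 value of CCND2, 3.53, lay below the filter level, so the fold there is not exact. Chosen after their values were seen, CCND3 was at 0.25 and -1.13, and CDK4 stood above siNT, at 1.44 and 0.51. CDK6, also named after its values were seen, lay below siNT, at -2.31 and -0.69. Its other probe sets ran from -2.07 to -1.51 with siAkt1-22. The E cyclins drive CDK2: CCNE1 was at -1.36 and -1.21 and CCNE2 at -1.34 and -4.50. The siAkt1-58 value of CCNE2, 4.08, lay close to the filter level, so the fold there is not exact. A dimmer CCNE2 probe set gave -0.98 and -2.60. Above siNT stood the inhibitors CDKN2B (2.45 and 3.08) and CDKN1A (1.27 and 0.93). Other inhibitors, named after their values were seen, did not share a course. CDKN2A was at 0.41 and 0.44, CDKN1B at 0.83 and -0.60, and CDKN2D at -0.29 and -0.29.

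The turnover genes, whose products degrade E2F proteins or set the timing of their loss, had 2 of 6 members at least 2-fold down in both siAkt1 libraries (1.17% of all genes), and medians of -0.54 and -1.36; a filter at the 50th percentile left 1. These were SKP2 (-1.26 and -1.63), a ubiquitin ligase subunit that binds E2F1, and FBXO5 (-1.05 and -1.74), an inhibitor of the anaphase-promoting complex. SKP2 read 3.92 with siAkt1-58, just below the filter level, so its fold there is not exact. CCNA2, the cyclin whose kinase releases E2F1 from DNA, was at -0.64 and -1.42, and CDC20 at -0.44 and -1.31.

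Of the 7 lists, the targets had the widest median gap between the siAkt1 libraries, 0.75 higher with siAkt1-22. Of 50 genes listed as E2F targets of S phase entry, 46 were tested. The list was chosen with earlier results of these data known, so its counts are no independent support for lower targets. With siAkt1-58 all 46 of these were below siNT and 34 at least 2-fold, beside 3.58% of all genes; with siAkt1-22, 36 were below siNT and 9 at least 2-fold, beside 5.97%. The 9 were at least 2-fold lower with both siRNAs (1.17% of all genes), and none was at least 2-fold higher with either. Among the 9 are CCNE1 and CCNE2, already counted upstream of RB1. CDC25A, CCNA2, RBL1, MYBL2, DNMT1 and EZH2 are also shared with other lists, so the lists are not separate. The medians were -0.59 and -1.44. In order of the difference nearer to 0, the first were the chromatin remodeller HELLS (-1.74 and -2.23), the helicase subunit MCM6 (-2.18 and -1.74), UHRF1 (-1.56 and -1.92), which guides maintenance of DNA methylation, and DTL (-1.47 and -1.72), which directs replication proteins to degradation. The dimmest UHRF1 probe set was nearly flat (0 and -0.10). The 2 largest differences of a target in a single library, picked out after the values were seen, were those of CCNE2, given above, and of TYMS, the thymidylate synthase gene, at 0.37 and -4.09. Between the siAkt1 libraries, 14 targets read at least 2-fold higher in siAkt1-22 (5.00% of all genes did) and 0 at least 2-fold lower (5.28%). No target passed limma after Benjamini-Hochberg adjustment over all genes (0 of 46). Of the E2F genes, TFDP1, RB1 and the pocket-protein list, E2F8 and MYBL1 were at least 2-fold below siNT with siAkt1-58 (3.58% of all genes). TFDP1, E2F7 and RBL2 were so with siAkt1-22 (5.97%). Each library is single, and a link between these genes and the targets was not tested.

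**Figure D3:**
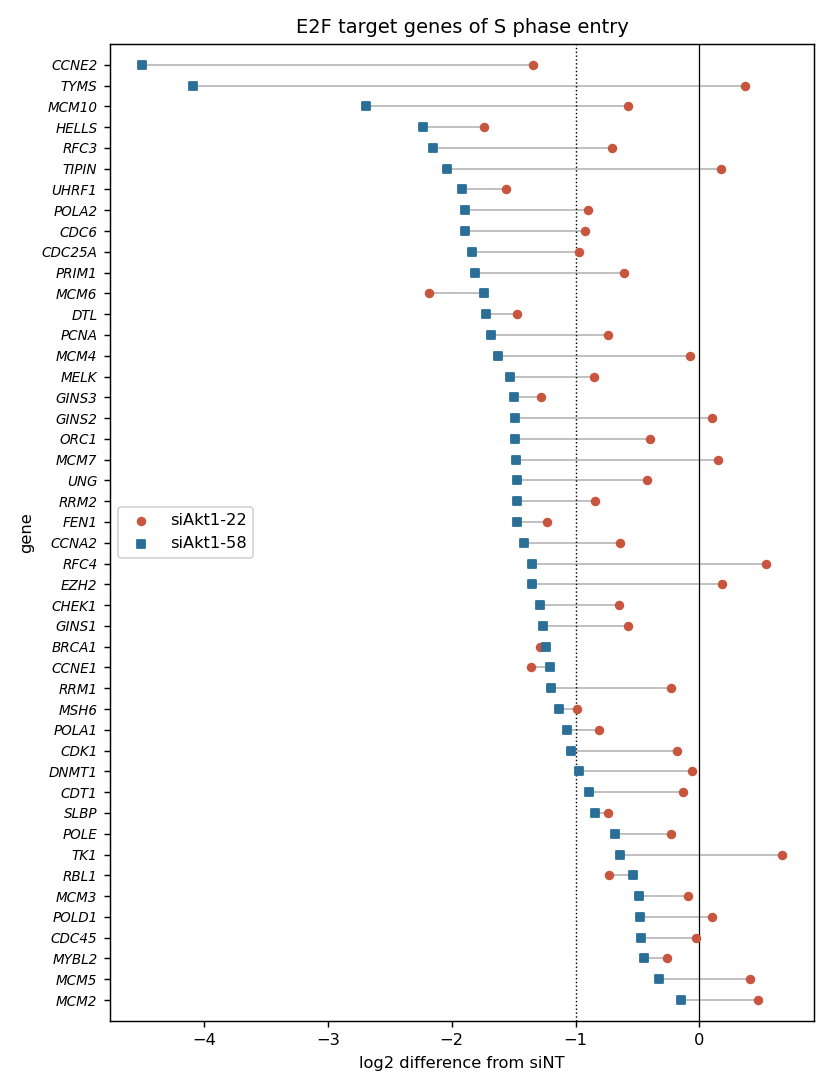
Log2 difference from siNT (x axis) for the 46 tested E2F targets (y axis, sorted by siAkt1-58), with circles for siAkt1-22, squares for siAkt1-58, a grey line joining both and a dotted line at 2-fold below siNT. All 46 squares lie left of 0, against 36 of the circles.

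E2F matches in promoters were then set against the differences, a split chosen after the data had been seen. Of the 43 tested targets with a window, 26 (60.5%) held a match, beside 6.24% of the 10414 tested genes with a window. The list was made of known E2F targets, so that share follows from its choice and says nothing about the siRNAs. Targets with a match had medians of -0.64 with siAkt1-22 and -1.49 with siAkt1-58; the 17 without one had -0.61 and -1.29. Over all tested genes with a match, 59 of 650 (9.08%) were at least 2-fold below siNT with siAkt1-58, and 3.37% of the 9764 without one. With siAkt1-22 these shares were 8.46% and 5.81%. Outside the target list and the 10 genes themselves, 620 genes had a match and 6.29% of them were at least 2-fold lower with siAkt1-58, 7.90% with siAkt1-22. The 9764 genes without a match still held the 17 targets without one. These targets gave 12 of the 329 genes at least 2-fold lower with siAkt1-58 there, a small part. The 9764 were also not matched to the 620 in brightness, so they are not a matched background. The median of these 620 was 0 with either siRNA.

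Genes that work with RB1 and E2F6 in repression showed smaller differences. Of 16 RB1 corepressors tested, 6 were above siNT with both siRNAs and 2 below, with medians of 0.19 and 0.05; over all genes, 30.9% were above and 21.4% below. The histone methyltransferase KMT5B was at 0.63 and 0.84 and the scaffold SIN3B at 0.26 and 0.78, while SUV39H1, which methylates histone H3, was at -0.79 and -0.81 in its brightest probe set. Of the dimmer SIN3B probe sets, 1 gave 0.20 and 0.51 and another went the other way, at -0.55 and -0.35. Among 11 members of the E2F6 complex, 4 were below (21.4% of all genes) and 2 above siNT with both (30.9%), and the medians were 0 and -0.02. The brightest RING1 and RYBP probe sets were at 0 with both siRNAs, and averaged probe sets gave medians of 0.12 and -0.08. PCGF6, the Polycomb ring finger subunit of the complex, was at -0.66 and -0.73, MAX at 0.36 and 0.46 and EPC1 at 0.53 and 0.31. The next brightest MAX probe set gave 0.44 and 0.47, and a dimmer one gave -0.73 and -0.57. EZH2, in both lists and among the S phase targets, was the 1 gene past 2-fold in these lists, at 0.18 with siAkt1-22 and -1.35 with siAkt1-58.

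Death and stress genes known as E2F1 targets had medians near 0. Of 13 tested, 6 were below siNT (21.4% of all genes) and 4 above (30.9%) with both siRNAs, none at least 2-fold with both, and the medians were -0.07 with siAkt1-22 and -0.08 with siAkt1-58. SIVA1, an apoptosis adaptor, was at -0.32 and -0.85 and the BH3-only gene BCL2L11 at -0.35 and -0.27. BBC3, which encodes PUMA, was at 1.20 and 0.20, though only 0.14 and -0.28 in a dimmer probe set. TP53BP2, which encodes a p53-binding protein, was the gene at least 2-fold lower with a single siRNA, at -1.68 and -0.01, and is named for that value.

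**Figure D4:**
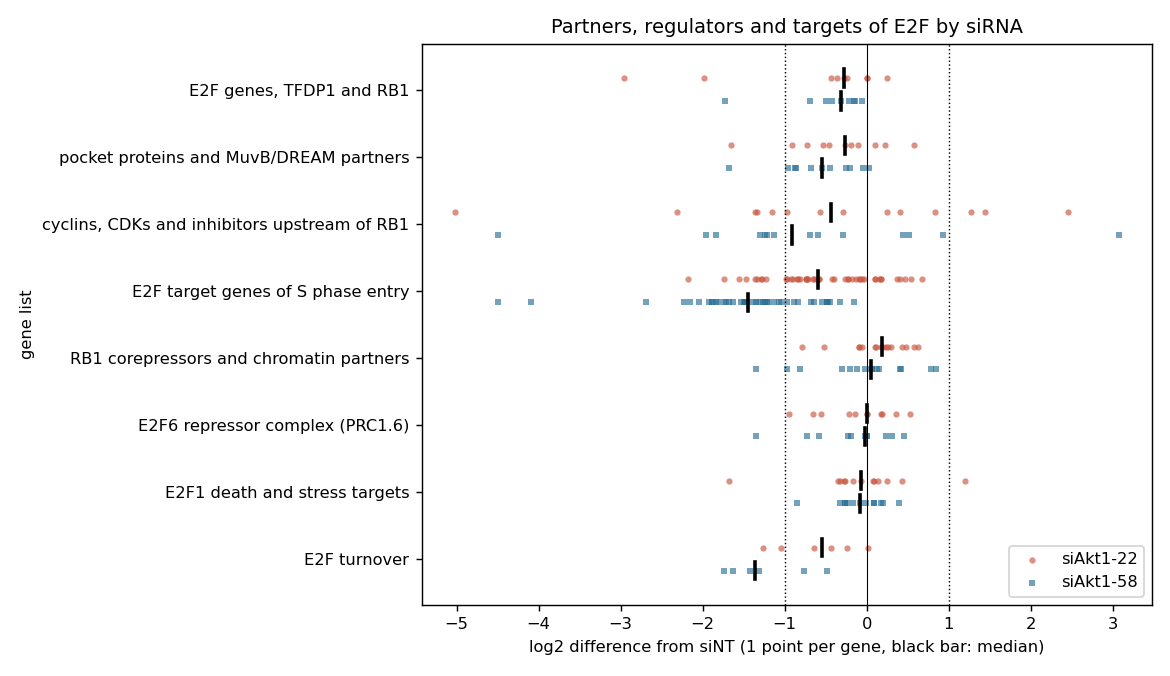
Log2 difference from siNT (x axis) for the E2F genes with TFDP1 and RB1 and for 7 lists of related genes (y axis), 1 point per tested gene, with circles for siAkt1-22, squares for siAkt1-58, a black bar at each median and dotted lines at 2-fold. The S phase targets have medians of -0.59 and -1.44, and the medians of the corepressors, the E2F6 complex and the E2F1 death targets lie between -0.08 and 0.19, with EZH2, BBC3 and TP53BP2 past 2-fold in 1 library each.

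The poly-A controls were lower in the siAkt1-22 library, the one in which E2F7, TFDP1 and RBL2 were low, with a range from -1.25 to -0.35. The hybridisation controls, which do not pass through labelling, stood at -0.04 there. The part of labelling in these results was not tested.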

How the data were processed

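The deposited table holds log2 expression values per probe set for 3 libraries (1 siNT, 2 siAkt1), ranging from 2.20 to 13.4; the submitters' processing notes name RMA with no settings, and the log2 scale was read from the values. Column medians were 4.59, 4.59 and 4.58. RMA equalises the arrays and summarises probes by median polish, which with 3 arrays yields many exact ties. Of 49386 probe sets, 45253 carried 1 gene symbol, updated through Entrez identifiers for 45172; control, unlisted and multi-gene probe sets were left out. The brightest probe set stood for its gene, and 12779 of 18239 genes were tested, those whose mean reached the 30th percentile; probe sets had their own 30th percentile, 3.63, which 25 of the 27 passed. Both siAkt1 libraries, given 1 genotype by the labels, were set against siNT with limma 3.58.1 under R 4.3.3 (two-sided, p adjusted by Benjamini-Hochberg across the genes tested, limit 0.05, 1 residual degree of freedom), so the single siNT library is assumed to vary like them. Steps were tested on simulated data. Genes named were the members, AKT1 and up to 4 leading and 2 opposite genes of each list, with exceptions stated where they occur; the markers came from a separate list. The members and lists were chosen with earlier results of these data known. The number of arrays limits all precision. Promoter windows came from RefSeq. Averaged probe sets, median centring, quantile normalization, filters at none and at the 50th percentile, a 1.5-fold limit, limma with an intensity trend, probe sets as the unit and leaving out each siAkt1 library were tried.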

Additional observations from a re-analysis of the deposited data

How the results depend on the processing

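Under averaged probe sets, median centring, quantile normalization and no filter, 2 of the E2F genes, TFDP1 and RB1 were at least 2-fold lower with siAkt1-22, 1 with siAkt1-58 and 0 with both. The filter at the 50th percentile left 0 with siAkt1-58, because E2F8 is no longer tested, and the 1.5-fold limit gave 2. Medians were -0.14 and -0.20 with averaged probe sets, -0.26 and -0.26 without a filter and -0.36 and -0.22 with the stricter one. At 1.5-fold, 23 S phase targets were lower with siAkt1-22 and 22 with both. With averaged probe sets, 8 S phase targets were at least 2-fold lower with siAkt1-22, 29 with siAkt1-58 and 8 with both. Their medians were then -0.40 with siAkt1-22 and -1.19 with siAkt1-58. Leaving out a siAkt1 library gave the counts of the other: 1 to 2 members, 2 to 5 of their probe sets and 9 to 34 targets. No member passed limma under any setting run (lowest adjusted p over all genes 0.257, without a filter). No paired analysis was possible because siNT is 1 library and the labels give no replicate numbers. With 1 siNT array, nothing here separates its own deviation from an effect of the siRNAs.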
